A study of Homo sapiens with 3 samples.

Results

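The outer end of the long arm of chromosome 10 was examined in chromatin immunoprecipitation followed by sequencing (ChIP-seq) of C11orf84 and of Spindlin1 in untreated U2OS cells, a human osteosarcoma line. The stretch was taken as every peak of either list whose summit lay at position 128000000 of chromosome 10 or beyond in the human genome build hg19. It held 1181 of 177639 C11orf84 peaks and 762 of 153468 Spindlin1 peaks, 1943 of 331107 peaks in all, and reached 7.50 Mb from there to its outermost summit. The series has 3 samples, 1 library with an antibody against C11orf84, 1 with an antibody against Spindlin1 and 1 Input library without antibody, of which no file was used here. With 1 library per antibody no test between conditions can be made, and no p-value is given. The 95% intervals cover counting error alone and treat peaks as independent of each other, which neighbours on a chromosome are not, so they are likely too narrow.

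Spindlin1 is a reader of histone tails whose Tudor-like folds bind methylated residues of histone H3. C11orf84, also called SPINDOC, is a protein known to bind Spindlin1. The outer bands of many human chromosome arms are rich in genes and in GC bases. In RefSeq's annotation of a later assembly, GRCh38.p14, 43 protein-coding genes run from DOCK1 to the tip of chromosome 10. Among them are DOCK1, a regulator of Rac and cell movement, MKI67, the Ki-67 protein of dividing cells, MGMT, which repairs alkylated guanine, and EBF3, a transcription factor. Farther out follow INPP5A, an inositol phosphatase, ADAM8, a membrane metalloprotease, and CYP2E1, an ethanol-metabolising cytochrome. The peak positions are in hg19 and were not assigned to these genes, so peaks are given by position alone.

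The stretch was chosen from the numbers of peaks of both lists, so its excess of C11orf84 peaks is a description and supports nothing. Spindlin1 supplied 39.2% of the peaks here (95% interval 37.0 to 41.4) and 46.4% in the rest of chromosomes 1 to 22 and X (46.2 to 46.6). Per Spindlin1 peak there were 1.55 C11orf84 peaks in the stretch and 1.16 elsewhere. Of the 777 windows of 1 Mb with at least 100 peaks, the windows at 132 to 133 Mb (92 C11orf84 and 42 Spindlin1 peaks, a Spindlin1 part of 31.3%) and at 129 to 130 Mb (68 and 32 peaks, 32.0%) had the lowest Spindlin1 parts of all, against a median of 46.1%. The other windows with as many peaks ranked from 23 to 114. Among the 1168 windows with at least 50 peaks, those at 132 to 133 Mb and 129 to 130 Mb ranked 5th and 6th from the lowest. When the C11orf84 list was cut by −log10 q to the length of the Spindlin1 list, the Spindlin1 part was 45.4% in the stretch and 50.03% elsewhere.

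At the edge of the stretch the first C11orf84 peak inside (128077110 to 128077293) had a summit depth of 9 fragments and was shared, and the last outside (127943524 to 127943703) also had 9 and was in the C11orf84 list alone. The first Spindlin1 peak inside (128039421 to 128039632) had 12 fragments and the last outside (127914885 to 127915056) had 10, and both were in the Spindlin1 list alone. Summit depth is the number of fragments over the highest point of a peak, recovered from the fold and p-value that the authors deposited.

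Peaks were densest at 134 to 135 Mb. The innermost window of 1 Mb held 27 C11orf84 and 13 Spindlin1 peaks. Outwards from it the windows held 68, 53, 103, 92 and 187 C11orf84 peaks and 32, 34, 63, 42 and 117 Spindlin1 peaks, with no steady rise. The window at 134 to 135 Mb held 523 C11orf84 and 377 Spindlin1 peaks. Beyond 135 Mb, where the outermost summit lay at 135.5 Mb, 82 C11orf84-only and 46 shared C11orf84 peaks followed, with 84 Spindlin1 peaks. Over the whole stretch there were 157 C11orf84 and 102 Spindlin1 peaks per Mb, against 60.4 and 52.1 over all chromosomes. C11orf84 peaks covered 324 kb, Spindlin1 peaks 191 kb, and 73.5 kb lay in both.

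**Figure D1:**
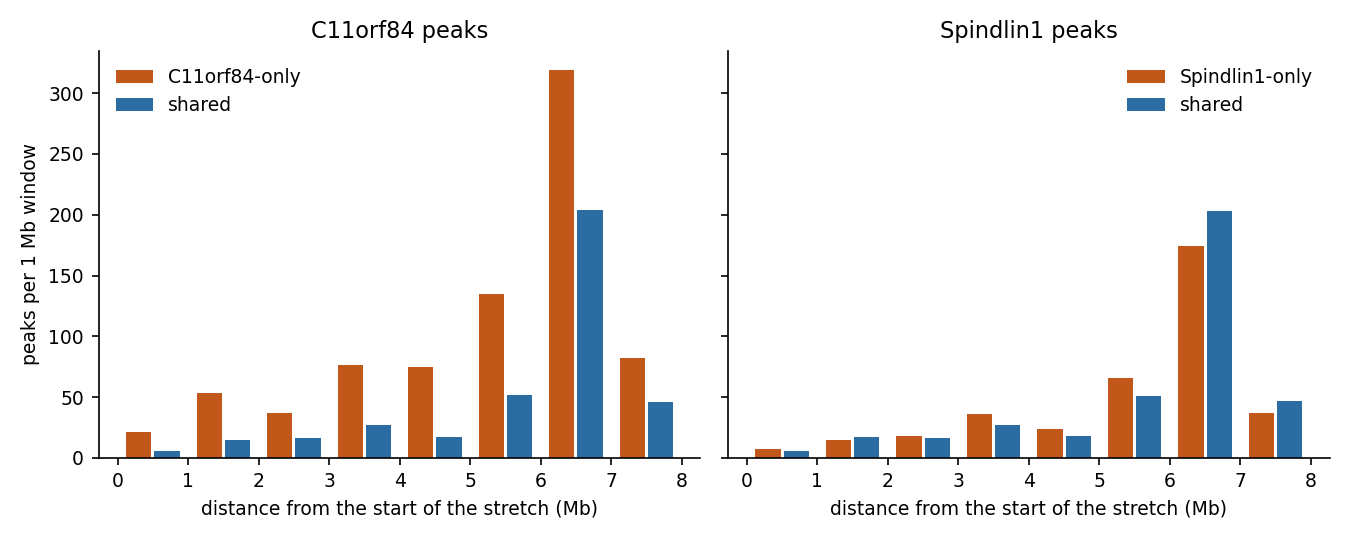
Numbers of C11orf84 peaks (left) and Spindlin1 peaks (right) in windows of 1 Mb from the start of the stretch towards the tip, in 1 list alone (orange) and shared (blue). The last window is filled only to 135.5 Mb. C11orf84-only peaks outnumber shared C11orf84 peaks in all 8 windows, and the seventh window holds the most peaks of each class.

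Most C11orf84 peaks of the stretch had no Spindlin1 peak over them. Of the 1181 peaks, 798 (67.6%, 64.8 to 70.2) had no base in common with a Spindlin1 peak and are called C11orf84-only, against 42.4% over all chromosomes. The other 383 are called shared. Of the 762 Spindlin1 peaks, 377 (49.5%, 45.9 to 53.1) had no base in common with a C11orf84 peak, against 30.3% over all chromosomes. Both lists thus overlapped less here than elsewhere, also the shorter one. On the rest of chromosome 10 44.5% of C11orf84 and 32.7% of Spindlin1 peaks stood alone. These shares are linked to the peak numbers that chose the stretch and are given as a description.

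Along the stretch the C11orf84-only part ran from 61.0% (56.7 to 65.2) in the densest window, at 134 to 135 Mb, to 81.5% (72.1 to 88.9) at 132 to 133 Mb. In the other 6 windows it lay between 64.1% and 77.9%. The Spindlin1-only part varied less, between 44.0% beyond 135 Mb and 57.1% at 131 to 132 Mb and at 132 to 133 Mb. In the 2 windows of lowest Spindlin1 part, the values of which chose the stretch, 75 of 92 (132 to 133 Mb) and 53 of 68 (129 to 130 Mb) peaks were C11orf84-only, and 24 of 42 and 15 of 32 Spindlin1 peaks stood alone.

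C11orf84-only peaks here had nearly the same depth as shared ones. C11orf84-only peaks had a median summit depth of 10 fragments (interquartile range 9 to 11, lowest 6, highest 18), against a median of 10 fragments for shared C11orf84 peaks (9 to 12, lowest 6, highest 42). The means were 10.0 ± 1.87 fragments for C11orf84-only peaks and 10.5 ± 2.62 for shared peaks (SD over 798 and 383 peaks). The distributions overlapped nearly throughout, with a mean difference of -0.50 fragments. In the rest of the genome the medians were 11 fragments for C11orf84-only and 13 for shared peaks, and the mean difference was -2.37. The authors' fold had a median of 5.40 in both classes of the stretch, and the −log10 q a median of 5.55 in both.

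Peaks of both classes were shallower at the end of chromosome 10 than elsewhere. At least 13 fragments were reached by 13.3% (10.1 to 17.1) of shared C11orf84 peaks in the stretch, against 55.6% (55.3 to 55.9) of those elsewhere. For C11orf84-only peaks the shares were 9.27% (7.35 to 11.5) in the stretch and 29.6% (29.3 to 30.0) elsewhere. At the low side, 41.6% (38.2 to 45.1) of C11orf84-only and 32.4% (27.7 to 37.3) of shared peaks of the stretch had 9 fragments or fewer, against 25.8% and 11.6% elsewhere. The 2 intervals of the stretch did not overlap, and over the whole stretch C11orf84-only peaks were the shallower class. At 132 to 133 Mb, with 17 shared peaks, C11orf84-only peaks were the deeper, with means of 10.3 and 9.76 fragments. In each other window of 1 Mb their mean was the lower.

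Spindlin1 peaks of the stretch behaved alike. Spindlin1-only peaks had a mean depth of 9.86 ± 1.81 fragments (SD, 377 peaks) and shared Spindlin1 peaks 10.1 ± 2.60 (SD, 385 peaks), with a median of 10 in both. Elsewhere the means were 10.9 and 12.9 fragments.

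Up to 15 fragments, the C11orf84-only part differed less between depths here than in the rest of the genome. This was counted among peaks whose background stood at the floor, the lowest background of a list, so that every peak was set against the same background. Of C11orf84 peaks with 7 fragments, 77.4% (63.8 to 87.7) were C11orf84-only in the stretch and 68.7% (66.8 to 70.5) elsewhere. At 10 fragments the shares were 65.3% (58.6 to 71.6) in the stretch and 55.4% (54.6 to 56.2) elsewhere, and at 13 fragments 63.2% (46.0 to 78.2) and 36.3% (35.3 to 37.4). At 15 fragments, 12 of 17 peaks of the stretch were C11orf84-only (70.6%, 44.0 to 89.7), against 23.4% (22.1 to 24.8) elsewhere. From 8 to 15 fragments the interval of the stretch lay above that of the rest at each depth. Shares by depth, here and for Spindlin1 below, are also linked to the peak numbers that chose the stretch. They are a description and test nothing. Deeper peaks were few and more often shared: over all backgrounds 3 of 8 peaks of 16 fragments, 1 of 6 of 17 and 1 of 3 of 18 or more were C11orf84-only.

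In Spindlin1 peaks at the floor the Spindlin1-only part at 7 fragments was 45.1% (31.1 to 59.7) in the stretch, not above the 50.1% (48.2 to 51.9) found elsewhere. At 10 fragments it was 50.4% (41.8 to 58.9) in the stretch and 36.7% (35.9 to 37.5) elsewhere, and at 13 fragments 41.9% (24.5 to 60.9) and 21.2% (20.2 to 22.3). From 7 to 12 fragments it stayed in the stretch between 45.1% and 51.0%. For peaks of 13 or more fragments, C11orf84-only peaks made up 60 of 99 in the stretch (60.6%, 50.3 to 70.3), against 26.8% elsewhere, and Spindlin1-only peaks 21 of 53 (39.6%, 26.5 to 54.0), against 15.7%. For 9 or fewer fragments, the C11orf84-only part was 74.0% (69.5 to 78.2), against 62.0%, and the Spindlin1-only part 49.8% (44.0 to 55.6), against 43.6%.

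The share was also reckoned with the depths held equal. If each floor peak of the stretch had the C11orf84-only share that its depth had elsewhere, 53.6% would be C11orf84-only. The observed part was 68.4% (65.5 to 71.3), and the rest of the genome at its own depths had 46.3%. Other arm ends reached such values too: among floor peaks of 10 fragments the end of chromosome 10, with 65.3%, ranked 8th from the highest of 33 ends, and the others ran from 33.5% to 76.9% with a median of 55.3%. For Spindlin1 the same reckoning gave 37.0%, with 49.1% (45.1 to 53.0) observed and 31.9% elsewhere. Since the stretch was chosen from its peak numbers, both reckonings are a description and no test.

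**Figure D2:**
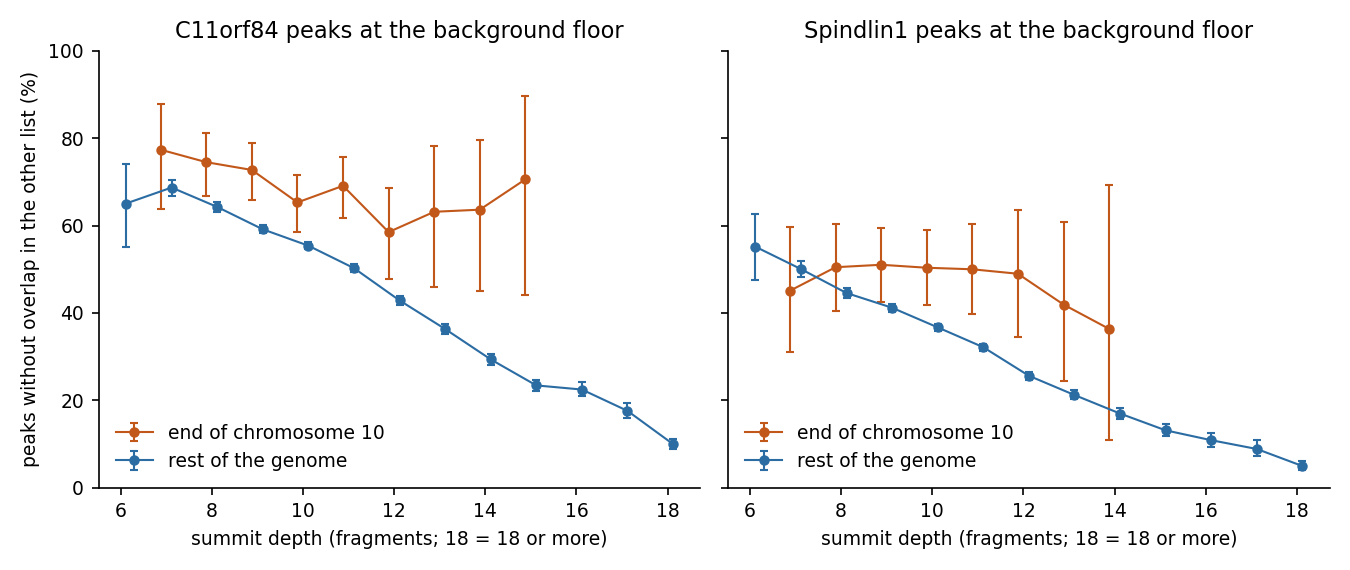
Share of peaks without overlap in the other list (y axis, %) against summit depth (x axis, fragments), for C11orf84 (left) and Spindlin1 (right) peaks at the background floor, at the end of chromosome 10 (orange) and in the rest of the genome (blue). Points with at least 10 peaks are drawn with exact 95% intervals. For C11orf84 the share elsewhere is 68.7% at 7 fragments and 23.4% at 15, while the end of chromosome 10 stays between 58.5% and 77.4%.

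C11orf84-only peaks were narrower than shared ones. A wider interval has more room to overlap a Spindlin1 peak, so the definition of sharing itself favours this order. How much of the difference comes from the definition was not tested. C11orf84-only peaks had a median width of 209 bp (95% interval 202 to 214, interquartile range 180 to 279), against 274 bp (256 to 292, interquartile range 209 to 396) for shared C11orf84 peaks. The difference was -65 bp, and the intervals of the 2 medians allow -90 to -42. The C11orf84-only median was close to that elsewhere, 208 bp, whereas shared peaks elsewhere had 312 bp (310 to 314). These medians are not at equal depth. From 8 to 13 fragments the shared medians of the stretch were 240, 242, 286, 283.5, 307 and 387 bp. Elsewhere they were 220, 234, 247, 267, 296 and 320 bp. At 7, 14 and 15 fragments the shared median of the stretch was the lower. The intervals of stretch and rest overlapped at each of these depths. A width of at least 500 bp was found in 27 C11orf84-only peaks (3.38%) and 55 shared peaks (14.4%), against 2.49% and 23.0% elsewhere. The shortest width of the list, 180 bp, was that of 212 C11orf84-only peaks (26.6%) and 51 shared peaks (13.3%), against 22.3% and 6.98% elsewhere.

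Widths were also compared at equal depth. At 10 fragments C11orf84-only peaks had a median of 205 bp (188 to 220) and shared ones 286 bp (230 to 340). At 11 fragments the medians were 193 bp (188 to 209) for C11orf84-only and 283.5 bp (248 to 337) for shared peaks. At 7 fragments they were 201 bp (180 to 225) and 195.5 bp (180 to 322), so no difference was seen there. At 8 and from 12 to 15 fragments the C11orf84-only median was the lower, but the intervals of the 2 medians overlapped. At 9 fragments the intervals met at 215 bp. Averaged over single depths with at least 20 peaks in each class, C11orf84-only peaks differed from shared ones by -67.5 bp, and the intervals allow -120 to -5.06. Elsewhere an average of this kind was -75.7 bp (-82.1 to -69.6). From 8 to 12 fragments the single differences of the stretch were -42, -42, -81, -90.5 and -89 bp. Those elsewhere were -26, -37, -49, -64 and -85 bp. From 13 to 15 fragments they were -95, -73.5 and -73 bp in the stretch, and -102, -115 and -135 bp elsewhere. Each set was averaged over its own depths, weighted by its own C11orf84-only peaks. The averages of the stretch and of the rest are therefore not compared at equal depth. The interval of the stretch included 0 with at least 50% of both intervals in common (-29.9 bp, -100.0 to 19.6), with summits at most 200 bp apart (-38.9 bp, -98.7 to 9.82) and at a −log10 q of at least 5 (-63.7 bp, -159 to 6.59).

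The median difference without regard to depth was smaller under stricter definitions of sharing. With sharing defined by summits at most 200 bp apart, it was -44.5 bp in the stretch and -63 bp elsewhere. With at least 50% of both intervals in common it was -37.5 bp in the stretch and -62 bp elsewhere. Spindlin1 peaks also differed in width, with medians of 196 bp for Spindlin1-only and 228 bp for shared peaks in the stretch.

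**Figure D3:**
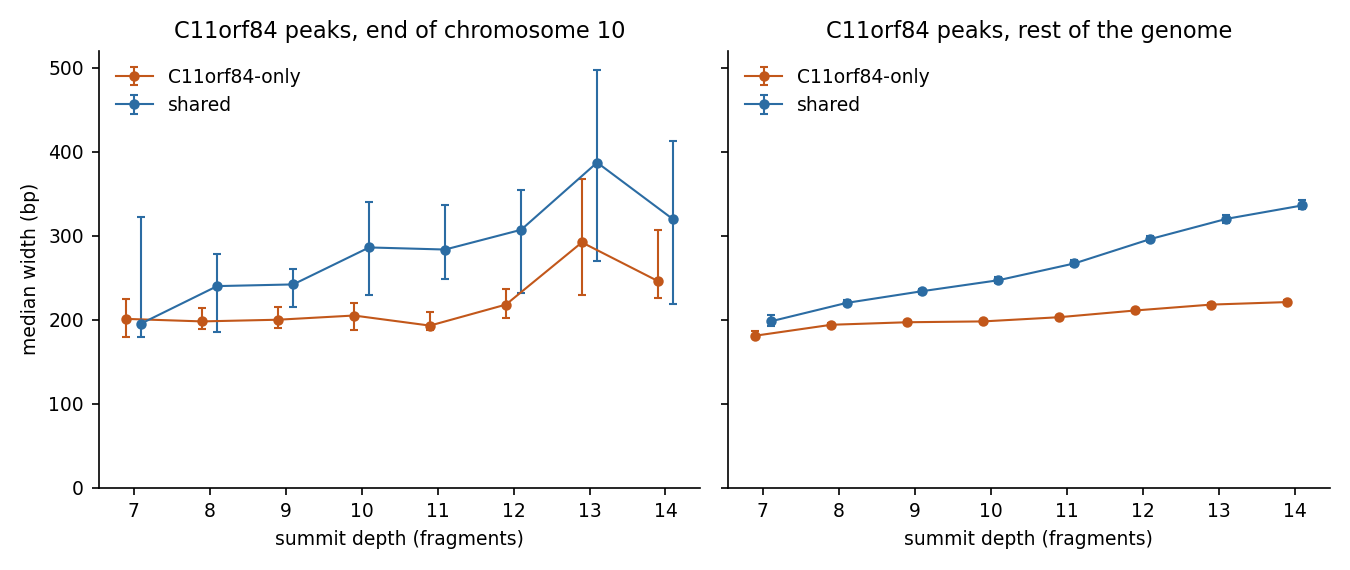
Median width of C11orf84 peaks (y axis, bp) at each summit depth from 7 to 14 fragments (x axis), for C11orf84-only (orange) and shared (blue) peaks, at the end of chromosome 10 (left) and in the rest of the genome (right). Bars are 95% order-statistic intervals. At the end of chromosome 10 the shared median is higher at every depth drawn except 7 fragments, by 42 bp at 8 fragments and 81 bp at 10. The intervals of the classes are apart there only at 10 and 11 fragments.

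The background of most peaks was as low as the lists allow, in both classes. It stood at the floor, within 0.1%, for 85.6% of C11orf84-only and 82.2% of shared C11orf84 peaks. Elsewhere these shares were 53.8% and 45.6%. A raised background, of at least 2 times the floor, was found at 8 of the 1181 C11orf84 peaks (0.68%) and 9 of the 762 Spindlin1 peaks (1.18%), against 9.25% and 9.11% elsewhere. On the rest of chromosome 10 the floor held 42.7% of C11orf84 and 41.5% of Spindlin1 peaks. DNA copy number was not measured here, and the part of a low background in the shallow depths and in the sharing was not tested.

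C11orf84-only peaks mostly had a Spindlin1 peak not far away. The nearest lay at a median of 1171.5 bp (interquartile range 382 to 3425), and 362 of the 798 (45.4%, 41.9 to 48.9) had one within 1 kb, close to the 45.5% found elsewhere. Farther than 5 kb from any Spindlin1 peak were 157 (19.7%, 17.0 to 22.6), against 25.7% elsewhere, and farther than 50 kb were 9. Depth hardly varied with this distance, with means of 9.98 fragments within 1 kb, 10.2 between 1 and 5 kb and 9.99 beyond 5 kb. Width did vary, with medians of 219.5 bp (210 to 231), 207 bp (196 to 216) and 192 bp (187 to 203) in that order. Spindlin1-only peaks had a C11orf84 peak within 1 kb in 244 of 377 cases (64.7%, 59.7 to 69.5), against 47.0% elsewhere. Such shares depend on peak density, which was 157 C11orf84 and 102 Spindlin1 peaks per Mb here. Over all chromosomes it was 60.4 and 52.1, and the comparisons with elsewhere were not adjusted for it.

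Long gaps in either list held few peaks of the other. The longest run without a Spindlin1 peak, at 128290467 to 128567342 (277 kb), contained 3 C11orf84 peaks of 8 to 12 fragments. The longest without a C11orf84 peak, at 130854436 to 131138327 (284 kb), contained 2 Spindlin1 peaks of 7 and 10 fragments. These gaps were chosen after their values were seen.

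At shared places the 2 proteins had similar depths on average but did not rank the places alike. Each of the 383 shared C11orf84 peaks was set beside the overlapping Spindlin1 peak with the nearest summit. The mean depth was 10.5 fragments for C11orf84 and 10.2 for Spindlin1. C11orf84 was deeper in 180 pairs, Spindlin1 in 151, and the depths were equal in 52. The Spearman correlation of the 2 depths over these pairs was 0.12, against 0.52 over 101902 pairs elsewhere. It was low as well at the ends of the chromosome 1 short arm (0.15), the chromosome 7 long arm (0.20) and the chromosome 4 short arm (0.25). The Pearson correlation was 0.47 and rested on 1 pair, since without the deepest it was 0.13. Pairs share libraries and neighbouring DNA, and the depths span few fragments, so these values are a description. C11orf84 was the wider peak in 238 pairs and Spindlin1 in 144. Summits lay at a median of 71 bp from each other, and within 200 bp in 80.9% of pairs.

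**Figure D4:**
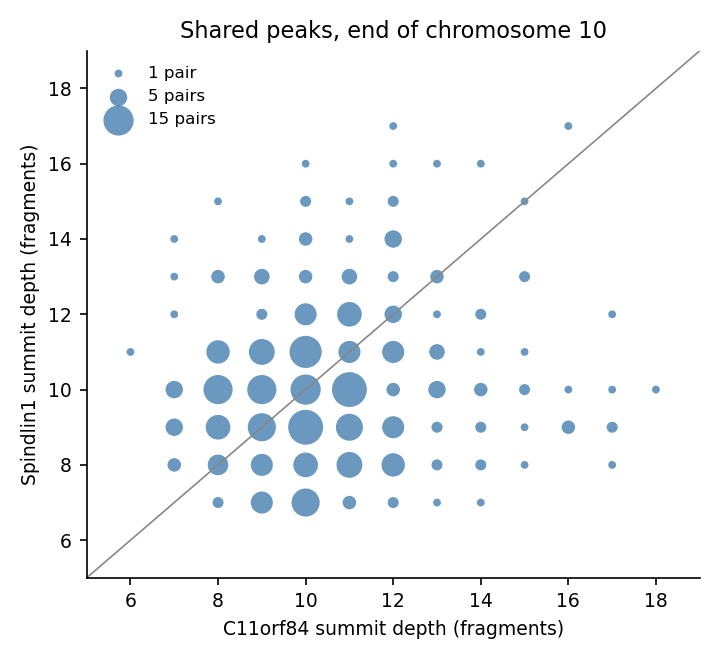
Summit depth of C11orf84 (x axis, fragments) and of Spindlin1 (y axis, fragments) at shared peaks of the end of chromosome 10, with the area of a point giving the number of pairs and the grey line equal depths. The pair of 42 and 43 fragments lies outside the axes. The points scatter on both sides of the line with no clear slope, as the Spearman correlation of 0.12 states.

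The deepest C11orf84-only peak lay at 131812998 to 131813244 (247 bp), with 18 fragments at the floor and a fold of 9.33, and the nearest Spindlin1 peak was 3487 bp away. The next, at 134569970 to 134570417 (448 bp, 17 fragments, fold 8.84), had a Spindlin1 peak 323 bp away. Another, at 131160342 to 131160560, had 16 fragments and a Spindlin1 peak 398 bp away. The remaining pair of 16 fragments stood on a raised background close to a Spindlin1 peak. The peak at 134234520 to 134235079 (fold 4.44, background 2.73 times the floor) lay 120 bp from one. The peak at 129924436 to 129924975 (fold 3.87, 3.27 times the floor) lay 55 bp from one. The sixth, at 129815059 to 129815484, had 15 fragments at the floor, 1921 bp from Spindlin1. Lack of overlap is the lack of a call and does not measure absence of Spindlin1.

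The 6 shared C11orf84 peaks of highest fold had 16 to 18 fragments, against 15 to 18 for the 6 deepest C11orf84-only peaks. The deepest shared peak, of 42 fragments, is not among them, since its fold was lower. The highest, at 134606961 to 134607498 (fold 9.33), had 18 fragments for C11orf84 and 10 for the Spindlin1 peak over it (134606958 to 134607584, fold 5.64). At 134085676 to 134086528 C11orf84 had 17 fragments over 2 Spindlin1 peaks, and the one with the nearest summit had 9. At 134426086 to 134426309 the depths were again 17 and 9. The peaks at 134603647 to 134604142 (17 fragments, against 8 for Spindlin1), at 134530725 to 134531053 (17, against 10) and at 133977651 to 133977921 (16, against 9) followed. In all 6 the Spindlin1 peak with the nearest summit had a depth at or below the Spindlin1 median of 10. These places were chosen for their C11orf84 fold, which favours that order.

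The Spindlin1-only peaks of highest depth show the reverse case. The deepest, at 134352621 to 134352814, had 18 fragments at the floor, a fold of 9.75 and the nearest C11orf84 peak 73 bp away. The same depth and fold were found at 134540084 to 134540404, 429 bp from C11orf84. At 131377525 to 131377803 there were 17 fragments and C11orf84 was 294 bp away, and at 134404409 to 134404618 there were 16 fragments and it was 1259 bp away. Peaks of 1 list alone thus reached 18 fragments in both lists.

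The widest C11orf84 peaks were mostly shared, an order that the definition of sharing favours. The widest, at 134971733 to 134972979 (1247 bp), had 14 fragments and overlapped 2 Spindlin1 peaks. The one with the nearest summit had 227 bp and 9 fragments. At 135170103 to 135171165 (1063 bp) the C11orf84 depth was 11 fragments and that of Spindlin1 15. At 134019908 to 134020933 (1026 bp) the depths were 12 and 7 fragments. The fourth, at 134512910 to 134513919 (1010 bp, 12 fragments), was C11orf84-only, 101 bp from a Spindlin1 peak.

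The outermost peak stood apart from the others in both lists. At 135500556 to 135500993 C11orf84 had 42 fragments, a fold of 5.52 and a background of 6.54 times the floor. The Spindlin1 peak over it had 43 fragments, a fold of 3.14 and a background of 13.7 times the floor. The next deepest peak had 18 fragments in each list. Whether repeated sequence near the tip gave these depths was not tested. Without the outermost 500 kb, the C11orf84-only part was 68.0% and the width difference -60 bp.

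Beside other chromosome arm ends of the same length, the end of chromosome 10 lay at one side in sharing, depth and floor share. It lay outside the range of the others only in the Spindlin1 part and the floor share of C11orf84. The Spindlin1 part chose the stretch. Of 41 ends, 35 had at least 50 C11orf84 peaks in each class. The C11orf84-only part of 67.6% was the 4th highest, where the other 34 ran from 15.6% to 70.2% with a median of 47.9%. The Spindlin1-only part was the 5th highest. The mean C11orf84 depth of 10.2 fragments was the 2nd lowest, with the others from 10.2 to 19.1. The share of C11orf84 peaks at the floor, 84.5%, was the highest, just above the 84.4% of the next end, and with the outermost 5 Mb of each arm it was the 2nd highest. The width difference of -65 bp ranked 9th from the top, and the others ran from -220 to -36.5 bp. Averaged over single depths the width difference of -67.5 bp was 15th from the top of 33 ends, where the others had a median of -76.9 bp. Each end was averaged over its own depths with its own weights, so this rank does not compare ends at equal depth.

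The small difference in depth between the classes was also found at other shallow ends. It was -0.50 fragments here and between -6.14 and -0.37 at the others, with a median of -1.09. The 3 ends closest in floor share were those of the long arm of chromosome 7, the short arm of chromosome 1 and the short arm of chromosome 4. Their mean depth differences were -0.56, -0.49 and -0.72 fragments, their C11orf84-only parts 70.2% (65.5 to 74.6), 59.2% (57.2 to 61.2) and 59.2% (56.8 to 61.6), and their width differences -53.5, -65 and -73 bp. The C11orf84-only interval of chromosome 10, 64.8 to 70.2, overlapped that of chromosome 7 and lay above those of chromosomes 1 and 4.

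Sharing by depth at the end of chromosome 10 was likewise within the range of the other ends. From 9 or fewer to 13 or more fragments, its C11orf84-only part among floor peaks changed by -13.4 percentage points. At 33 other ends with at least 20 peaks in both depth groups the change ran from -62.8 to -2.82, with a median of -22.1. Over the 35 ends, mean C11orf84 depth and the C11orf84-only part had a Spearman correlation of -0.86, and the floor share and the Spindlin1 part one of -0.86. The ends share the same 2 libraries and are no replicates.

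**Figure D5:**
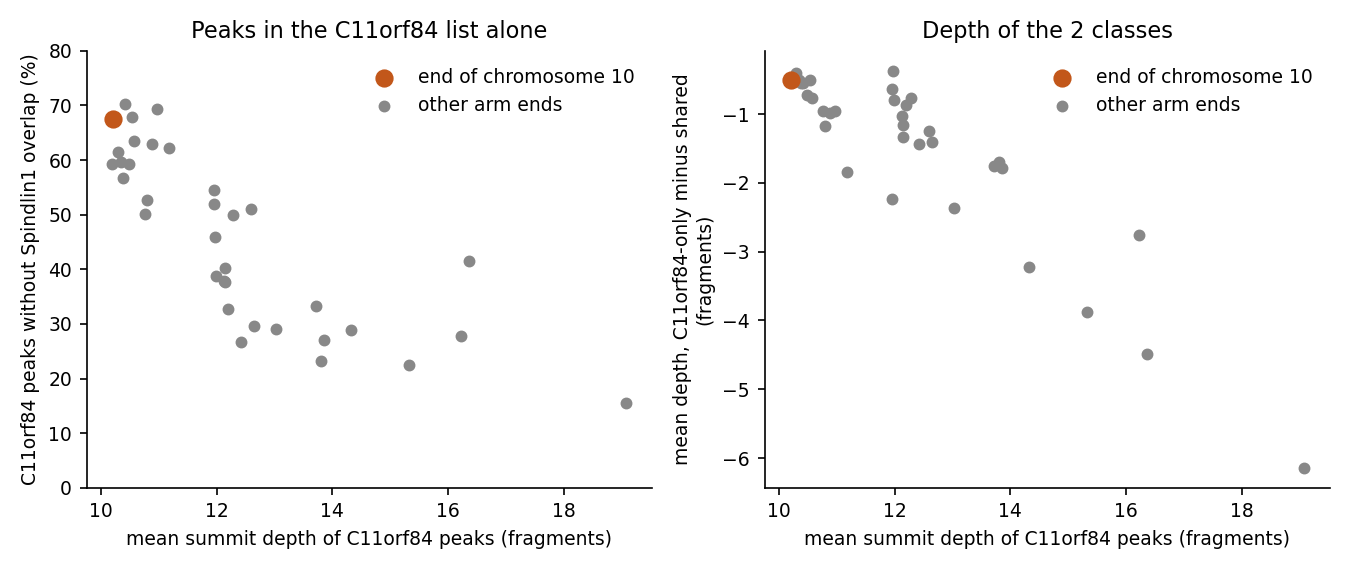
Mean summit depth of C11orf84 peaks (x axis, fragments) at 35 chromosome arm ends of equal length, against the share of C11orf84 peaks without Spindlin1 overlap (left, %) and against the mean depth of C11orf84-only minus shared peaks (right, fragments). The end of chromosome 10 (orange) lies at 10.2 fragments, 67.6% and -0.50, among other shallow ends (grey).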

How the data were processed

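The submitters' processing notes name Bowtie 1.2.2 and hg19. Which program called the peaks, at what threshold and against which control is not given in the sources used here. The authors' deposited lists give for each peak a fold (ratio of summit to local background), a −log10 p-value, a −log10 q-value and a score. In 100% of peaks this score equalled 10 times that −log10 q-value with the decimals dropped. Positions are printed counting from 1.

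With k fragments at the summit and a background λ, the deposited fold was read as (k + 1)/(λ + 1), and the deposited p-value as the chance that a Poisson count exceeds k. A whole k met both in 100% of peaks of both lists (largest error 0.000174 in −log10 p). The lowest λ, the floor, was 1.04 fragments for C11orf84 and 0.949 for Spindlin1. Total reads are unknown. Floors and shortest peaks (180 and 172 bp) put the C11orf84 library at 1.04 times the Spindlin1 depth, which is an inference. On simulated data the depth of 100% of 19504 peaks and the overlap of 100% of 5000 intervals were recovered. The simulated folds and p-values were made with the same formulas. This therefore checks the computation, not whether the deposited values follow those formulas.

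Chromosome Y was not used. Shares carry exact Clopper-Pearson intervals and medians exact order-statistic intervals. Single regions named were the 6 deepest C11orf84-only, 6 shared of highest fold, 4 widest and 2 of highest background in the C11orf84 list, and the 4 deepest Spindlin1-only peaks. Members, regions and comparisons were chosen with earlier results of these data known. The counts by depth group, distance, pair and gap were added after the overlap had been seen. Alternatives were other definitions of overlap, −log10 q of at least 5, lists of equal length, floor peaks and other limits of the stretch. The work used SciPy 1.17.1, pandas 2.3.3 and NumPy 2.4.6 under Python 3.11.15, with figures from matplotlib 3.10.9.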

Additional observations from a re-analysis of the deposited data

How the results depend on the processing

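Of 59 values recomputed under the alternatives, 47 stayed within the interval of the reported value, 12 lay outside it and 0 changed sign. Only the width differences could have reversed, since shares have no sign and the reported median differences in depth and background were 0. The C11orf84-only part of the stretch was 82.0% with at least 50% of both intervals in common, 73.2% with summits at most 200 bp apart and 78.5% at a −log10 q of at least 5, against 58.8%, 52.3% and 47.9% elsewhere. With peaks between 0 and 5 kb from Spindlin1 left out it was 29.1%, against 15.8% elsewhere. The Spindlin1-only part was 72.2%, 58.5% and 62.7% under the first 3 of these, against 52.4%, 44.9% and 33.7% elsewhere. With lists of equal length it was 58.1%, against 35.6% elsewhere. The Spindlin1 part was 36.5% at a −log10 q of at least 5, against 44.9% elsewhere. With lists of equal length that part was 45.4%, against 50.03% elsewhere. The median depth difference was 0 in the reported setting and in 8 alternatives, and -1 fragment with lists of equal length. The width difference was -37.5 bp with 50% of both intervals and between -82 and -44.5 bp in the other alternatives, and at equal depth it ran from -72.5 to -29.9 bp. At equal depth the interval included 0 under the 2 other overlap definitions and at a −log10 q of at least 5. As the outermost 5 Mb, the end ranked 4th of 35 in its C11orf84-only part and had the 3rd lowest Spindlin1 part. The cause of these shifts was not tested. No paired analysis was possible because each antibody has 1 library. Few peaks of the stretch exceed 15 fragments, which limits every statement on deep peaks.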
